A study of Drosophila melanogaster with 4 samples.

Results

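The regions described here are the H3K9acS10P-enriched regions on chromosome 4 and on the 6 assembled heterochromatin sequences 2LHet, 2RHet, 3LHet, 3RHet, XHet and YHet. They were chosen by sequence name alone from the series-level list of enriched regions, and number 271 of the 15374 regions in that list, with 68 on chromosome 4 and 203 on the Het sequences. The ChIP group comprised 2 samples of wild-type Oregon-R embryos of Drosophila melanogaster, 14 to 16 h old, precipitated with 1 lot of an antibody against H3K9acS10P. The input group comprised 2 samples of the same strain and stage, 1 for each ChIP sample, and no list from it was used. Each ChIP sample has its own list of regions, and the series has 1 further list. There was no treatment or mutant. Whether the ChIP replicates stem from different embryo batches is not stated in the labels, and the spread between them can therefore be technical. A two-sided exact sign test over 2 replicates reaches a p of 0.5 at best.

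The antibody's target is histone H3 acetylated at lysine 9 and phosphorylated at serine 10 on the same tail. Acetylation of this lysine is typical of active genes, while methylation of the same lysine is the mark that heterochromatin protein HP1 binds, and a lysine cannot carry both. Phosphorylation of the serine is abundant on mitotic chromosomes and, in interphase, is laid down in the fly by the kinase JIL-1. Chromosome 4 is the small autosome of the fly, on which active genes lie among repeats and HP1-bound chromatin, and the protein POF binds its genes. The Het sequences are assembled scaffolds next to the centromeres and on Y, largely made of transposon remnants, with few genes. Genes that normally work inside such chromatin, such as light and rolled, are known in the fly. All positions are on the FlyBase r5 build, and regions are named by position because no gene models of that build were used here. In whole embryos, fewer cells carrying the mark and less of it per cell cannot be told apart.

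Chromosome 4 and the Het sequences had a smaller share of their bases in enriched regions than the large arms X, 2L, 2R, 3L and 3R, in both replicates. On chromosome 4, 5.87% of bases lay in regions of replicate 1 and 4.52% in regions of replicate 2, a mean of 5.19% ± 0.955 (SD, n = 2), against 8.99% and 23.0% on the large arms. The replicates thus lay close together on chromosome 4 and far apart on the large arms. The number of regions followed the same pattern, with 35 and 33 on chromosome 4, against 4537 and 10108 on the large arms. Per Mb, chromosome 4 held 25.9 and 24.4 regions and the large arms held 38.1 and 84.9. The ratio of densities was 0.679 in replicate 1, 0.287 in replicate 2 and 0.401 in the series-level list. For the Het sequences it was 0.0989, 0.108 and 0.175, in the same order of lists.

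The Het sequences had a smaller share still, and the 6 of them were unequal. Together they were covered to 0.831% in replicate 1 and 1.67% in replicate 2, a mean of 1.25% ± 0.592 (SD, n = 2). XHet was the most covered, with 3.16% in replicate 1, 5.57% in replicate 2 and 6.04% in the series-level list, although it is short, at 204112 bp, and held 3, 5 and 6 regions. 3RHet had 0.542%, 2.26% and 4.63%, and 3LHet had 1.24%, 1.69% and 3.68%, in the same order of lists. On 2RHet, the longest of the 6 at 3288761 bp, the shares were 0.528%, 1.18% and 2.39%. The order of the replicates was the other way round on 2LHet, with 2.14% in replicate 1, 0.650% in replicate 2 and 4.48% in the series-level list. YHet had no region in replicate 1, 1 region in replicate 2 and 4 in the series-level list. The order of the Het sequences below XHet thus differed between the replicates. Read depth and the mappability of these sequences are unknown, and their part in these values was not tested.

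**Figure D1:**
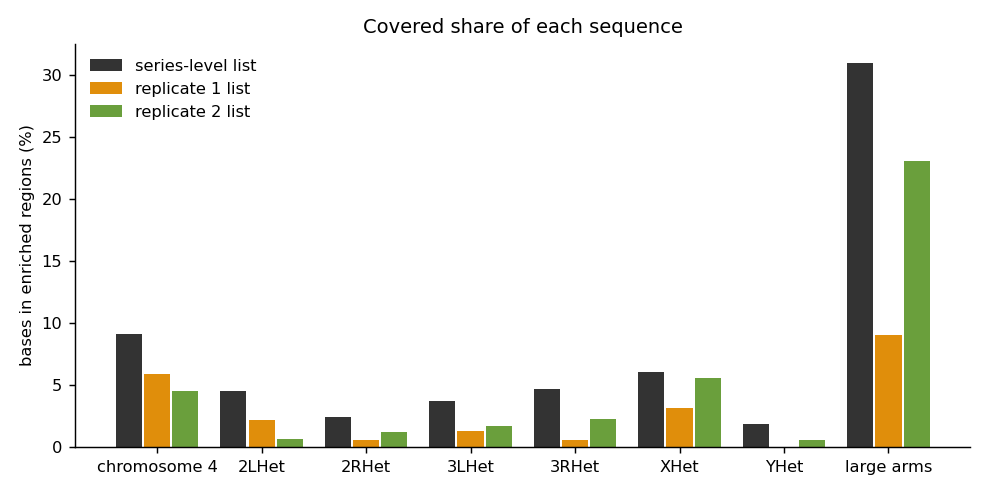
Share of bases in enriched regions (%) for chromosome 4, each Het sequence and the 5 large arms together, 1 bar for each list. Chromosome 4 and XHet stand highest among the sequences described here, at 9.12% and 6.04% in the series-level list, against 30.9% for the large arms.

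Along chromosome 4, whose numbering starts at the centromere-facing end, series-level regions were densest from 400001 to 700000, with 7, 10 and 9 in the 3 windows of 100 kb there. Beyond 1100000 each of the last 3 windows held 2, although the final one is only 51857 bp long. The window 200001 to 300000 also held 2, and the first window held 5. In the series-level list the 13 full windows of 100 kb were covered to between 3.25% and 17.6%, with a median of 9.19%. The highest window was 500001 to 600000, with 10 regions, and it was covered to 7.38% in replicate 1 and 11.0% in replicate 2. The next window, 600001 to 700000, had 9 regions and 14.7% in the series-level list, with 11.5% in replicate 1 and 3.31% in replicate 2. A second maximum lay at 1000001 to 1100000, with 6 regions and 14.7%, and with 12.5% in replicate 1 and 7.80% in replicate 2. This was the highest window of replicate 1, while 500001 to 600000 was the highest of replicate 2. With series-level regions from the median score upwards alone, 1000001 to 1100000 led, at 8.41%. Most of that share came from 1 region of 6822 bp, 1048481 to 1055302. All windows but the last, partial one held a region of replicate 1, whereas replicate 2 had regions in 11 of the 14. Replicate 1 covered more than replicate 2 in 8 windows and less in 5.

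**Figure D2:**
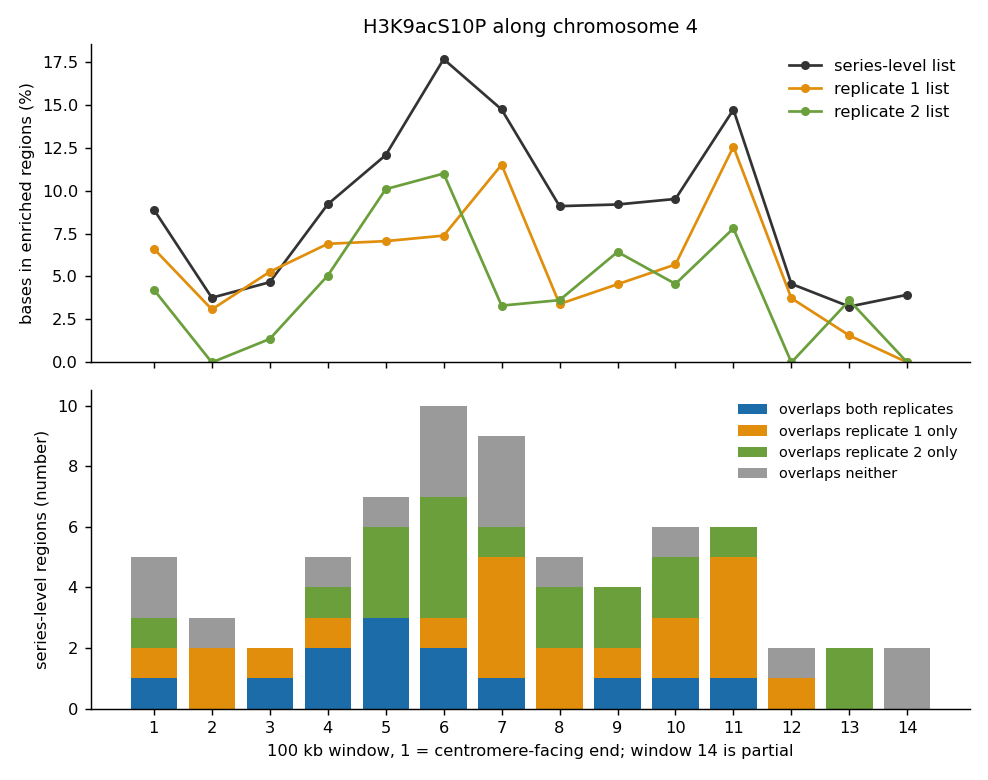
Share of bases in enriched regions (%) in each list (upper panel) and number of series-level regions by their overlap with the replicate lists (lower panel), in 100 kb windows along chromosome 4 numbered from the centromere-facing end. Window 6 has the highest series-level share, 17.6%, and window 11 forms a second maximum of 14.7%.

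The longest stretch of chromosome 4 without a series-level region ran from 1146154 to 1285787, 139.6 kb near the far end, and held 1 region of replicate 1, 1200890 to 1202455. Next came 231657 to 328390, of 96.7 kb, which held no whole region of either replicate. Replicate 1 regions 230181 to 232054 and 328153 to 330249 reached into its ends. The third, 88744 to 148826, of 60.1 kb, held 1 region of replicate 1. The Het sequences had longer empty stretches, led by 2RHet 702584 to 1300518, of 597.9 kb, and 2RHet 2385274 to 2775035, of 389.8 kb. Both held no whole region of any list. Replicate 2 region 2383972 to 2385343 and replicate 1 region 2774989 to 2777400 reached into the ends of the latter. The third was the first 264.8 kb of 3LHet, where replicate 1 had 3 regions and replicate 2 none. On the large arms the longest distance between neighbouring series-level regions was 152.2 kb.

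Most regions on chromosome 4 had a near neighbour, but less often than on the large arms. This share depends on how dense the regions are, and clustering beyond that density was not tested. Of the 68, 46 had a neighbour within 10 kb, or 67.6%, and on the Het sequences 103 of 203 did, or 50.7%, against 95.6% on the large arms. Among regions from the list's median score upwards these shares were 23.8% on chromosome 4 and 38.9% on the Het sequences. The median distance to the next region was 12.01 kb on chromosome 4 and 20.8 kb on the Het sequences, with 1 region per 19.9 and 45.7 kb of sequence, against 2.09 kb on the large arms with 1 region per 7.98 kb. In the replicate lists the median distance was 19.4 kb in replicate 1 and 25.1 kb in replicate 2 on chromosome 4, and 74.8 and 59.8 kb on the Het sequences, against 7.34 and 3.07 kb on the large arms. Within 10 kb steps, chromosome 4 formed 18 runs and 22 single regions. The largest run, 676683 to 702133, spanned 25.5 kb and held 5 regions, of which 1 overlapped both replicate lists, 3 replicate 1 only and 1 replicate 2 only. On the Het sequences there were 42 runs and 100 single regions, and no run held more than 4. The 4 of XHet, 59975 to 86384, included all 3 XHet regions that overlapped both lists.

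**Figure D3:**
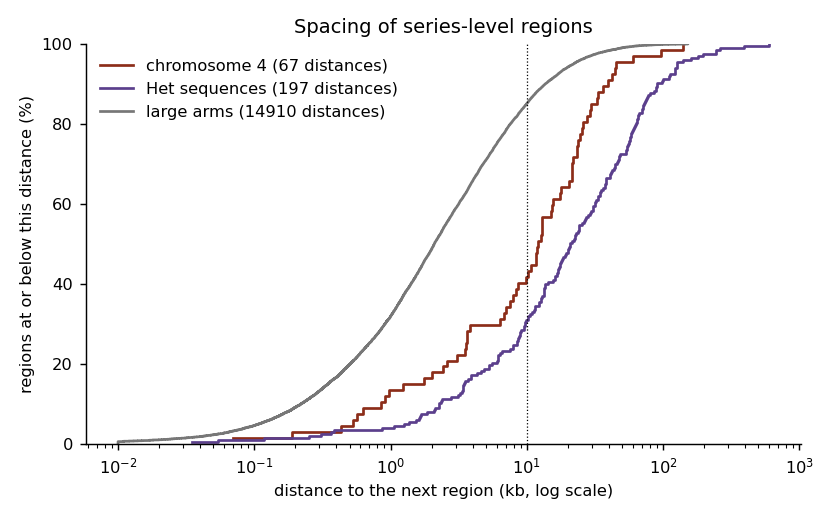
Cumulative share of series-level regions (%) by the distance to the next region on the same sequence (kb, log scale), with a dotted line at 10 kb. The curves for chromosome 4 and the Het sequences lie to the right of that for the large arms, with medians of 12.01, 20.8 and 2.09 kb.

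Series-level widths on chromosome 4 were close to those of the large arms in their median and lower in their upper quartile. The series-level median was 1732 bp on chromosome 4 (quartiles 1279 and 2200 bp) and 1393 bp on the Het sequences (1149 and 1828 bp), against 1770 bp on the large arms (1291 and 2796 bp). The difference on chromosome 4 was thus -38 bp. It was -234.5 bp among regions from the list's median score upwards and -169 bp after merging regions 500 bp or less apart. The widest regions were 6822 bp on chromosome 4 and 4273 bp on the Het sequences, and neither class held a region over 10 kb. Such regions were 187 of 14915 on the large arms, or 1.25%, and this difference was not tested. In replicate 1 the medians were 2150 bp on chromosome 4 and 2276 bp on the Het sequences, against 2067 bp on the large arms, so both classes were slightly wider there. In replicate 2 they were 1680 and 1641 bp, against 2011 bp, so both were narrower. The direction of the difference in median width thus changed from 1 replicate to the other.

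The 5 widest regions of chromosome 4 lay apart from each other. The first was 1048481 to 1055302, followed by 1142626 to 1146153 (3528 bp), 577122 to 580089 (2968 bp), 821640 to 824551 (2912 bp) and 86115 to 88743 (2629 bp). Of these, 1142626 to 1146153 overlapped replicate 1 only and 821640 to 824551 replicate 2 only. The other 3 overlapped both. On the Het sequences the widest were 3RHet 2097890 to 2102162 (4273 bp), 2RHet 1965496 to 1969418 (3923 bp) and 3LHet 1406682 to 1410330 (3649 bp). They were followed by XHet 75598 to 78949 (3352 bp) and 3LHet 1415516 to 1418860 (3345 bp). All but the XHet region overlapped replicate 2 only.

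The series-level regions of chromosome 4 were spread almost evenly over the possible overlaps with the replicate lists. Of the 68, 13 overlapped both lists by at least 1 bp, 20 replicate 1 only, 19 replicate 2 only and 16 neither. The 13 made up 19.1% (95% Wilson interval 11.5 to 30.0%), against 23.0% of the large-arm regions and 22.5% of all 15374 regions. This difference did not pass the threshold (two-sided Fisher's exact test, p = 0.56 after adjustment for 6 tests). The class that set chromosome 4 apart was replicate 1 only, with 29.4% (19.9 to 41.1%) against 3.27% on the large arms and 3.43% of all regions (by Fisher's exact test, p = 1.95e-13 after adjustment for 4 tests chosen after the data were seen). Set against 1 replicate list at a time, chromosome 4 regions overlapped replicate 1 more often than large-arm regions did, by 22.3 percentage points, and replicate 2 less often, by -16.3 points (adjusted p = 0.00014 and 0.0092 by Fisher's exact test). Replicate 2 only made up 27.9%, against 40.4% on the large arms and 40% of all regions, and was not tested. The share in neither list was 23.5% against 33.4% on the large arms and 34.1% of all regions, and missed the threshold (adjusted p = 0.094 by Fisher's exact test, and 0.042 when 50% of a region had to overlap). Replicate 2 covered 4.52% of chromosome 4 and 23.0% of the large arms, so a region meets it by chance less often on chromosome 4, and this was not separated from the difference in shares. On chromosome 4 the series-level list held 33 of the 35 regions of replicate 1 and all 33 of replicate 2. On the large arms it held 98.3% and 96.9% of them. The shares set against 1 replicate list, and their p-values, thus largely restate the numbers of regions in the lists. The replicate 1 only and neither shares also depend on these numbers, and this was not separated. The intervals and tests count regions, which are not replicates of embryos, and neighbouring regions are not independent.

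On the Het sequences most series-level regions were found in neither replicate. Of the 203, 14 overlapped both lists, or 6.90% (4.15 to 11.2%), against 23.0% on the large arms (adjusted p = 3.66e-09 by Fisher's exact test). Another 17 overlapped replicate 1 only, or 8.37%, against 3.27% (adjusted p = 0.00062 by Fisher's exact test, and 0.085 among regions from each list's median score upwards). A further 63, or 31.0%, met a region of replicate 2 alone, against 40.4% on the large arms and 40% of all regions, and this was not tested. No region of either replicate was met by 109, or 53.7% (46.8 to 60.4%), against 33.4% on the large arms (adjusted p = 1.03e-08 by Fisher's exact test). Replicates 1 and 2 covered 0.831% and 1.67% of the Het sequences, against 8.99% and 23.0% of the large arms. Overlap by chance is thus rarer on the Het sequences, and this was not separated from the differences in shares. The shares also depend on the numbers of regions in the replicate lists, 35 and 85 here against 4537 and 10108 on the large arms. This was not separated either. By sequence, regions in both lists were 3 of 6 on XHet, 5 of 59 on 3LHet, 4 of 51 on 2RHet, 1 of 10 on 2LHet, 1 of 73 on 3RHet and 0 of 4 on YHet.

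**Figure D4:**
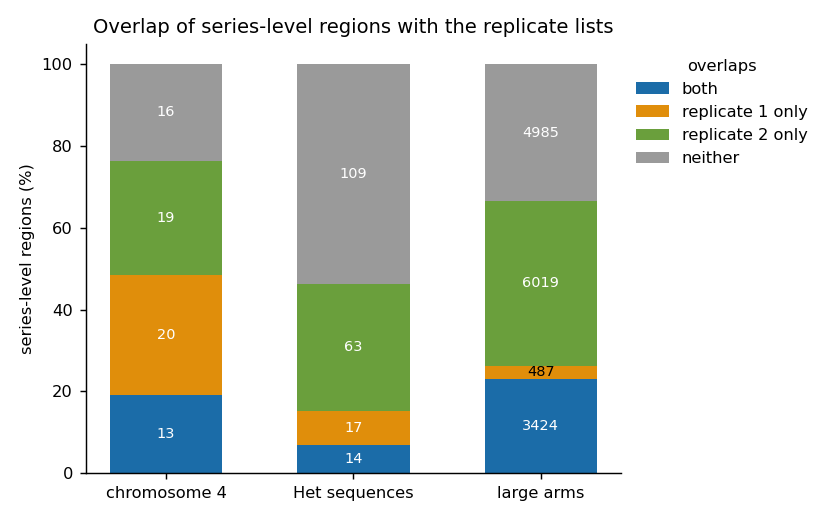
Share of series-level regions (%) by overlap with both replicate lists, 1 of them or neither, on chromosome 4, the Het sequences and the large arms, with the number of regions written in each bar. Regions in replicate 1 only make up 29.4% on chromosome 4 and 3.27% on the large arms, and regions in neither make up 53.7% on the Het sequences.

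The same overlaps were read within classes of width, since wide regions meet another list more easily. Among regions of 2000 bp or more, 13 of 21 on chromosome 4 overlapped both lists, or 61.9%, and 14 of 37 on the Het sequences, or 37.8%, against 54.1% on the large arms. In this class, 14.3% on chromosome 4 and 16.2% on the Het sequences overlapped replicate 1 only, against 1.75% on the large arms. Width was not equal within the class, with medians of 2292 bp on chromosome 4, 2458 bp on the Het sequences and 3207 bp on the large arms. Between 1100 and 2000 bp, chromosome 4 had no region in both lists among 38, with 17 in replicate 1 only (44.7%), 14 in replicate 2 only (36.8%) and 7 in neither (18.4%). The Het sequences had none in both among 129, of which 8.53% were in replicate 1 only, 35.7% in replicate 2 only and 55.8% in neither. On the large arms, 2.54% of regions of this width were in both, 4.84% in replicate 1 only, 46.6% in replicate 2 only and 46.1% in neither. Neither replicate list held a region narrower than 1301 bp on chromosome 4, the Het sequences or the large arms. In the series-level list the smallest width was 1001 bp, and what this did to the overlaps was not tested. At 1100 bp or less, all 9 regions of chromosome 4 and 35 of the 37 on the Het sequences were in neither list, against 85.4% on the large arms. Every region of chromosome 4 and of the Het sequences that overlapped both lists was therefore at least 2000 bp wide, the narrowest being 2051 and 2069 bp.

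Seen from the replicate lists, chromosome 4 regions of replicate 1 had a partner less often than those of the large arms, while for replicate 2 no difference passed the threshold. Of the 35 regions of replicate 1, 13 had a partner in replicate 2, or 37.1%, against 87.9% on the large arms and 87.1% in the whole list (adjusted p = 1.61e-11 by Fisher's exact test). Of the 33 regions of replicate 2, 14 had one, or 42.4%, against 36.2% on the large arms and 36% in the whole list (adjusted p = 0.56 by Fisher's exact test). The replicates shared 26.4 kb on chromosome 4, or 33.3% of what replicate 1 covered there and 43.2% of what replicate 2 covered. Most regions of chromosome 4 without a partner lay more than 5 kb from any region of the other replicate. Among the 22 of replicate 1, the median distance to the nearest replicate 2 region was 15.4 kb and 6 lay within 5 kb, against a median of 2.41 kb for the 548 such regions on the large arms. The 19 of replicate 2 had a median of 22.1 kb, against 7.96 kb on the large arms. Such distances depend on the density of the other list. Replicate 2 held 24.4 regions per Mb on chromosome 4 and 84.9 on the large arms, and replicate 1 held 25.9 and 38.1. The part of density in these distances was not separated. On the Het sequences, 14 of 35 regions of replicate 1 had a partner, or 40.0%, against 87.9% on the large arms (adjusted p = 8.98e-11 by Fisher's exact test). Of the 85 regions of replicate 2, 14 had one, or 16.5%, against 36.2% (adjusted p = 0.00014 by Fisher's exact test). The shared 30.4 kb was 39.4% and 19.6% of their bases. Replicate 2 covered 4.52% of chromosome 4 and 1.67% of the Het sequences, against 23.0% of the large arms. Replicate 1 covered 5.87% and 0.831%, against 8.99%. A partner is thus met by chance less often on both classes, and this was not separated from the differences in partner shares.

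The 13 regions of chromosome 4 found in both replicates ran from 86115 to 1055302 and fell in 9 of the 14 windows. Each corresponded to 1 region in each replicate, except 1048481 to 1055302, which corresponded to 1 region of replicate 1 and 2 of replicate 2. The authors' score, whose scale is unknown, was read within each list only. Of the 13, 10 scored above the large-arm median of 0.73 in replicate 1 and 3 above that of 0.67 in replicate 2. In the series-level list 11 were above the large-arm median of 0.47.

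Nearest the centromere-facing end lay 86115 to 88743, with a score of 1.53 in replicate 1, 1.48 in replicate 2 and 1.49 in the series-level list. It was the highest-scoring region of chromosome 4 in both replicate lists and ranked at 130 of 15374 in the series-level list. Region 212706 to 215146 scored 1.02 in replicate 1, 0.43 in replicate 2 and 0.64 in the series-level list. Only 56.0% of its bases were covered by replicate 2, the least of the 13. At 333162 to 335403 the scores were 1.44, 0.50 and 0.94, in the same order of lists, and at 377720 to 380011 they were 1.05, 0.41 and 0.67. These 3 regions stood above the large-arm median in replicate 1 and below it in replicate 2.

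From 463006 to 488196 there were 3 shared regions close together. Region 463006 to 465195 scored 0.95 in replicate 1, 0.51 in replicate 2 and 0.71 in the series-level list, and its neighbour 466169 to 468219 scored 0.67, 0.38 and 0.43. The third, 485968 to 488196, scored 0.92, 0.49 and 0.67. All 3 were below the large-arm median in replicate 2. In the most covered window, 577122 to 580089 scored 1.17 in replicate 1, 0.55 in replicate 2 and 0.83 in the series-level list. Its neighbour 589927 to 592194 scored 1.07, 1.13 and 1.09. Of the 13, only 86115 to 88743, 589927 to 592194 and 1048481 to 1055302 were above the large-arm median of each list.

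Further along, 679393 to 681989 scored 1.17 in replicate 1, 0.45 in replicate 2 and 0.78 in the series-level list. Regions 885723 to 887954 and 977151 to 979383 were the weakest in replicate 1, at 0.63 and 0.59, and had 0.63 and 0.56 in replicate 2. The last shared region, 1048481 to 1055302, scored 0.97, 0.95 and 0.82 in the 3 lists, and 67.97% of it was covered by replicate 1 and 91.5% by replicate 2. Beyond 1055302, no region of chromosome 4 was found in both replicates.

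Regions of chromosome 4 found in 1 replicate alone were scattered among the shared ones. The 20 in replicate 1 only ran from 62955 to 1146153, and their replicate 1 scores lay between 0.43 and 1.12 with a median of 0.62, against a median of 1.02 for the 13 shared regions. The 19 in replicate 2 only ran from 2628 to 1299703, and their replicate 2 scores had a median of 0.59, against 0.51 for the shared ones. In replicate 1 the regions without a partner thus scored lower, and in replicate 2 they did not. On the large arms, regions without a partner had a median of 0.65 in replicate 1, against 0.75 for those with one. In replicate 2 these large-arm medians were 0.63 and 0.84. None of these differences was tested. The 3 highest-scoring regions of replicate 1 without a partner were 1142510 to 1146243 at 1.12, 645095 to 647384 at 0.86 and 1070521 to 1072883 at 0.81. Those of replicate 2 were 2875 to 4465 at 0.93, 1020014 to 1021570 at 0.79 and 724264 to 726294 at 0.69. The series-level list held all 33 regions of replicate 2 on chromosome 4 and 33 of the 35 of replicate 1, lacking 89550 to 91496 and 1200890 to 1202455.

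The 14 shared regions of the Het sequences included some that scored high in both replicates. On 2LHet, 167106 to 169932 scored 1.49 in replicate 1, 1.27 in replicate 2 and 1.26 in the series-level list. On 2RHet, 390198 to 393033 scored 1.46, 1.36 and 1.36, the highest series-level score of the 14. The other 3 of 2RHet, at 470086 to 472543, 2775036 to 2777385 and 2901224 to 2904087, scored from 1.13 to 1.25 in replicate 1 and from 0.46 to 0.75 in replicate 2. Of these 3, all were above the large-arm median in replicate 1, and only 2901224 to 2904087 was above it in replicate 2.

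On 3LHet, 2 neighbouring shared regions scored above the large-arm median in both replicates. Region 700837 to 703628 scored 0.98 in replicate 1, 1.42 in replicate 2 and 1.19 in the series-level list, and 707962 to 710668, only 4.33 kb further on, scored 0.87, 1.35 and 1.10. At 2396919 to 2399821 the scores were 1.46, 1.27 and 1.33. Regions 599915 to 601983 and 605417 to 607794 scored 0.83 and 1.33 in replicate 1 and 0.27 and 0.41 in replicate 2. The 1 shared region of 3RHet, 1822543 to 1824830, scored 1.42 in replicate 1 and 0.40 in replicate 2. On XHet, 59975 to 63182, 75598 to 78949 and 84203 to 86384 scored 0.83, 0.61 and 0.47 in replicate 1 and 1.01, 0.80 and 0.72 in replicate 2. All 3 were above the large-arm median in replicate 2, and only the first was above it in replicate 1.

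The highest series-level scores of the Het sequences belonged to narrow regions that neither replicate list held. All 10 of the highest-scoring Het regions, at 1.53 to 2.96, overlapped neither list, and 8 were 1100 bp wide or less, close to the smallest width of 1001 bp in this list. They were 3RHet 2054404 to 2055411, 2RHet 3004823 to 3005859, 3RHet 854237 to 855567, 2RHet 2166368 to 2167368 and 2RHet 344159 to 345159, in falling order of score. Below them lay 3LHet 1485053 to 1486105, 3RHet 1795824 to 1796855, 2RHet 2366021 to 2367066, 2RHet 2223886 to 2224922 and 3RHet 967910 to 969708. On the large arms the 10 highest-scoring regions were likewise in neither list and 9 of them were 1100 bp or less. The replicate lists held no region under 1301 bp on the Het sequences or the large arms. Whether this difference in smallest width bears on the missing overlaps was not tested. The share of regions with scores above 1 was 13.3% on the Het sequences (27 regions) and 4.41% on chromosome 4 (3 regions), against 3.55% on the large arms. Of these, 5 of 27 on the Het sequences and 2 of 3 on chromosome 4 overlapped both lists, against 92.8% on the large arms. These shares were not tested.

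**Figure D5:**
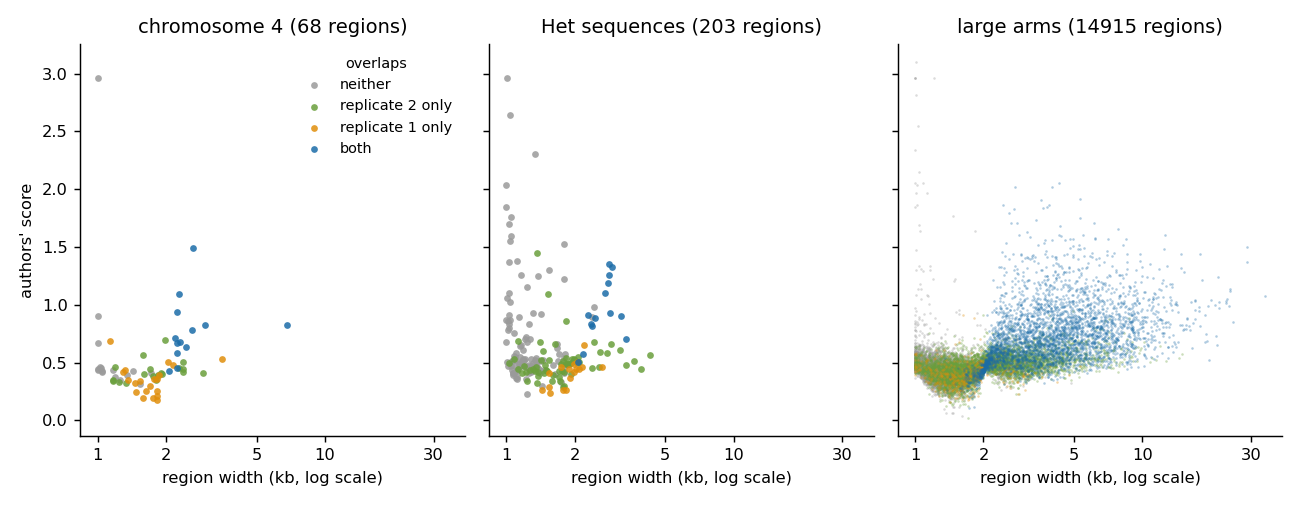
Authors' score against region width (kb, log scale) for the series-level regions of chromosome 4, the Het sequences and the large arms, coloured by overlap with the replicate lists. Regions in both lists are at least 2051 bp wide on chromosome 4 and 2069 bp on the Het sequences, and the scores above 1.5 in these classes belong to regions in neither list.

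On chromosome 4 the 5 highest-scoring series-level regions began with 615245 to 616245, of 1001 bp, at 2.96, which overlapped neither list. Next were the shared regions 86115 to 88743, 589927 to 592194 and 333162 to 335403, and then 1333991 to 1334991, also of 1001 bp and in neither list, at 0.90. The score of 615245 to 616245 was identical within 1e-10 to that of 12 other series-level regions, 1 on 3RHet, 7 on U, 3 on 2R and 1 on 3L, all in neither list and 1212 bp wide or less. Identical scores were common throughout, at 29 of 68 regions on chromosome 4 and 127 of 203 on the Het sequences, against 54.9% on the large arms. As a description over regions of 1 list, width and score had a Spearman rho of 0.27 over the 68 regions of chromosome 4 and -0.088 over the 203 of the Het sequences, against 0.47 over the 14915 of the large arms. Within replicate 1 the values were 0.81 over 35 regions and 0.72 over 35, against 0.68 on the large arms. Within replicate 2 they were 0.48 over 33 and 0.30 over 85, against 0.71.

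Some high-scoring replicate regions of the Het sequences had no counterpart in any other list. In replicate 1 these were led by 3LHet 261452 to 263143, at 1.85, which the series-level list did not hold either. The next without a partner in replicate 2, 3LHet 458768 to 461056 at 1.15 and 3LHet 2242741 to 2245097 at 1.10, were held by the series-level list. In replicate 2 the leading regions without a partner were 2RHet 226518 to 227823 at 2.96, 3LHet 2061858 to 2063467 at 1.91 and 3RHet 266531 to 267931 at 1.64. Of these, only the one at 2061858 was in the series-level list. In all, 31 of 35 Het regions of replicate 1 and 78 of 85 of replicate 2 overlapped the series-level list. On 3RHet all 7 regions of replicate 1 lay in the last of 3 equal parts of the sequence, where replicate 2 had 13 of its 33. On 3LHet the first of 3 equal parts held 10 of the 15 regions of replicate 1 and 8 of the 24 of replicate 2.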

How the data were processed

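Chromatin immunoprecipitation with an antibody against H3K9acS10P was followed by sequencing in 2 ChIP samples, with 2 input samples. Per the submitters' processing notes, Bowtie 0.12.7 aligned the reads. Per the file headers, the lists are on FlyBase r5. The region caller, its threshold and the making of the series-level list are not stated. The authors deposited a score for each region, used only within 1 list. No read counts were given, so depth is unknown.

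Python 3.11.15, NumPy 2.4.6, pandas 2.3.3, SciPy 1.17.1 and matplotlib 3.10.9 were used. Coordinates are 1-based. Regions overlapped when they shared at least 1 bp, and windows took regions by midpoint. Wilson intervals (95%) cover counting of regions only. Fisher's exact tests were two-sided with a threshold of 0.05, adjusted by Benjamini-Hochberg over 6 planned tests and over 4 added after the data were seen. The code was tested on simulated data. Alternatives were an overlap of 50%, a filter at each list's median score, merging across distances of up to 500 bp, autosomal arms alone, each replicate left out, run distances of 5 and 20 kb and windows of 50 and 200 kb.

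Members and measures were chosen with earlier results of these data known. Regions were named by a rule: those in both replicates, the highest-scoring (5 on chromosome 4, 10 on Het), the 5 widest, the 3 highest-scoring of each replicate without a partner, and the 3 longest empty stretches of chromosome 4. Other named regions (Het empty stretches, runs and regions missing from the series-level list) were chosen after their values were seen. Genes and base sequences were not used here.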

Additional observations from a re-analysis of the deposited data

How the results depend on the processing

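No paired analysis was possible because no input list was used and the ChIP group alone has no group to pair with. The comparisons of regions in replicate 1 only and in neither list, with their alternatives, were added after the data were seen. Of the recomputed values, 36 were classed as keeping their direction or side of the threshold and 12 as moved. Another 2 reversed, 2 newly passed the threshold in the same direction and 1 no longer did. Of the reversed values, that with replicate 1 alone also passed the threshold. The 36 include changes of size, such as the chromosome 4 width difference, from -38 bp to -234.5 bp among regions from each list's median score upwards. The ratio of covered share to the large arms, a mean over replicates of 0.424 on chromosome 4 and 0.0825 on the Het sequences, lay between 0.196 and 0.653 and between 0.0725 and 0.0925 under the alternatives, the extremes being single replicates. In the series-level list it was 0.295 and 0.113. The share of chromosome 4 regions in both lists, minus that of the large arms, was -3.84 percentage points. It turned to 2.31 when 50% of a region's bases had to overlap (Fisher's exact test, adjusted p = 0.63). With 1 replicate left out it ranged from -16.3 (replicate 2 alone, adjusted p = 0.0092, Fisher's exact test) to 22.3 (replicate 1 alone, adjusted p = 0.00014). Both of these values largely restate the numbers of regions in the lists. With that 50% overlap, the difference in neither list on chromosome 4 was -11.8 points (adjusted p = 0.042, Fisher's exact test). Among high-scoring regions (from each list's median upwards), the excess of Het regions in replicate 1 only was 3.22 points (adjusted p = 0.085, Fisher's exact test). The share of regions in runs was 51.5% on chromosome 4 and 33.0% on the Het sequences at 5 kb, 89.7% and 71.4% at 20 kb, and 23.8% and 38.9% among high-scoring regions. The highest window share on chromosome 4 was 20.1% in 50 kb windows, 14.9% in 200 kb windows and 8.41% among high-scoring regions, where 1000001 to 1100000 led. For the Het sequences, the series-level ratio of regions per Mb was 0.175, with 0.219 among high-scoring and 0.210 among merged regions, and the width difference was -377 bp, with -1074 bp among high-scoring regions. The cause of these changes was not tested, beyond the fewer or longer regions each setting makes. Read depth is unknown and limits every list.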
